A study of Mus musculus with 11 samples.

Results

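The genes described here are the axon guidance ligands and receptors of neurons of the mouse stellate ganglion, a sympathetic ganglion of the lower neck. They were taken by symbol: Eph receptors and ephrins of types A and B, semaphorins of classes 3 to 7, plexins, neuropilins, Robo receptors and Slits, netrins, Unc5 receptors, Dcc and Neo1. The rule found 55 of the 19444 genes in the expression table, in 15 families, and no Unc5 gene was among the rows analysed here. Among them, Plxna4os2 is a non-coding transcript antisense to Plxna4, matched by its symbol.

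Male C57BL/6J mice of 6 to 8 weeks had been injected 3 days earlier with 2 retrograde tracers, CTB-555 in interscapular brown fat and CTB-488 in the forelimb. Each of 3 sets holds cells from the ganglia of 2 mice, which cannot be told apart, and serves as the replicate (n = 3), and the 11 plates within the sets are technical. No group without tracer is among the samples, and no cell of the table was tied to a tracer here. All groups below are groups of cells of those same pooled ganglia. Cluster 4 held 54 cells, cluster 1 held 388 and cluster 2 held 335, as numbered in the authors' annotation, which names no cell type. Cluster 3 was split at 31622.8 counts per cell into 47 high-count and 54 low-count cells, because its totals fell into separate ranges of 52105 to 107665 and 1536 to 18608 counts.

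Levels are given as mean counts per 10000 counts of a cell (CP10K), averaged over the cells of a set and class. Plates held 2050165 to 3373157 counts. Median counts per cell were 35488.5 in cluster 4, 68061 in high-count cluster 3, 2683.5 in low-count cluster 3, 28396 in cluster 1 and 40121 in cluster 2. The markers of noradrenergic sympathetic neurons summed to 90.4 to 105 CP10K in cluster 1, 112 to 129 in cluster 2 and 87.4 to 104 in high-count cluster 3 over the sets. Cluster 4 stood at 31.4 to 45.2 CP10K for that list and at 58.2 to 64.6 for the cholinergic markers Vip, Slc18a3, Slc5a7 and Chat, whose sum stayed at or below 0.391 in clusters 1 and 2. Low-count cluster 3 was mixed. Its glial markers summed to 12.3 to 81.5 CP10K over the sets, its endothelial markers to 14.6 to 48.8, its fibroblast markers to 0.327 to 44.1 and its mural markers to 2.40 to 26.7, beside 37.8 to 67.6 for general neuron markers.

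Axon guidance molecules tell a growing axon where to turn, stop or branch, and several of them stay expressed in the adult nervous system and in blood vessels. Ephrins bind Eph receptor tyrosine kinases on neighbouring cells and can signal in both directions. Class 3 semaphorins are secreted and act through a complex of a neuropilin, which binds the ligand, and a plexin, which signals into the cell, while other semaphorins bind plexins directly. Slits are secreted ligands of Robo receptors, and netrins act through Dcc, neogenin (Neo1) and Unc5 receptors. In developing sympathetic neurons, secreted semaphorins acting through neuropilins are known to position cells and repel axons, and vessels are a source of guidance cues for sympathetic fibres.

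The first comparison asked which guidance genes separate the 2 large noradrenergic clusters. Epha5, Nrp1 and Sema6d were higher in cluster 1, and Nrp2, Ntng1 and Efna5 were lower in cluster 1 than in cluster 2. Of 32 members with a mean level of at least 0.05 CP10K, 3 were called higher, against a background of 3.37% of all 10518 genes tested, and 3 were called lower, against 4.71%. The test was limma on the mean of log2(1 + CP10K) per set and cluster, with set as a block and Benjamini-Hochberg adjustment over all genes. The median log2 difference was -0.02 over the 32 members and -0.01 over all genes. With summed counts and voom weights the members split into 5 higher and 9 lower, beside 9.09% and 13.1% of all genes. Because the clusters were drawn from these same cells and genes, the p-values describe how far a difference repeated over the 3 sets.

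**Figure D1:**
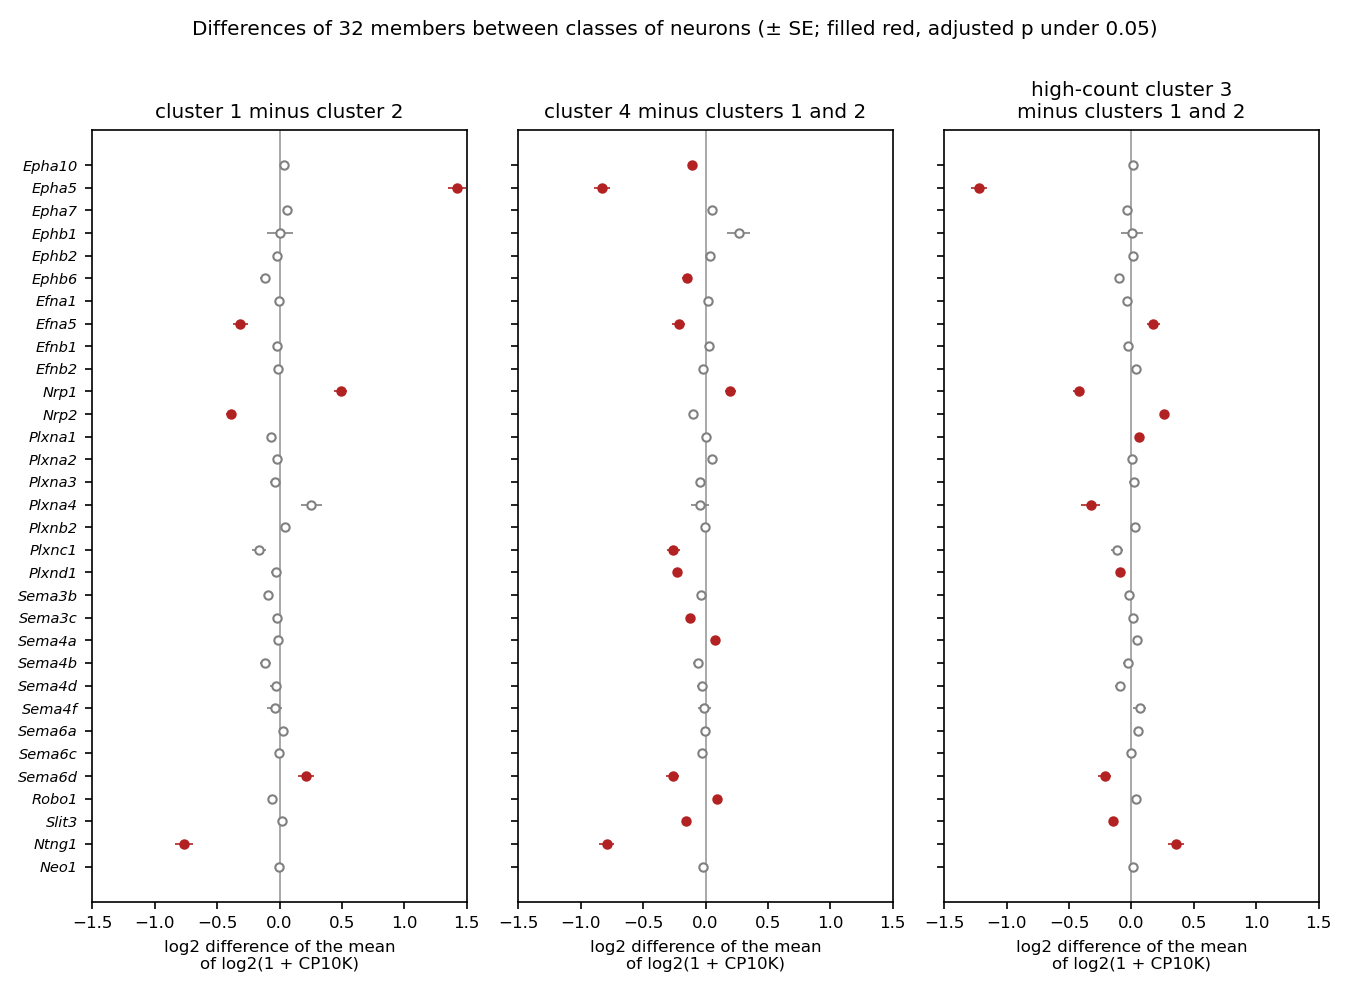
Log2 difference (x axis) of 32 members (rows) between classes of neurons, with the standard error as a bar; filled red points have an adjusted p under 0.05. Epha5 has the largest positive difference of the 32 in the left panel, at 1.42, and Ntng1 the largest negative one, at -0.76.

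The calls for 4 of these 6 members, Epha5, Nrp1, Nrp2 and Ntng1, passed the threshold under each of 12 alternative settings, which the calls for Efna5 and Sema6d did not. The promoters of these 4 members are shown because their calls passed under each setting. They are given as 300 bases from RefSeq (GRCm38.p6), 250 before to 50 after its annotated start, on the strand of the gene. The gene positions given below come from GENCODE M21, whose starts can differ. The Nrp1 and Ntng1 windows lie wholly inside those gene positions, so they hold no bases upstream of the GENCODE starts. RefSeq's table held a promoter for 45 of the 55 members. Both strands were searched for 4 motifs bound by families of factors active in sympathetic neurons: AGATAA for GATA factors, CAGCTG for basic helix-loop-helix factors, CATCTG for other factors of that kind, and TAATTA for homeodomain factors. Capitals mark every match. These 6-letter strings occur in 11.2%, 16.3%, 17.2% and 5.29% of 32851 promoters, in the order given. In the 4 windows 1 match was found, a TAATTA in the Epha5 promoter. GC content was 64.3% for Epha5, 64.0% for Nrp1, 70.7% for Nrp2 and 59.7% for Ntng1, beside a median of 52.7% over all promoters of the table.
Epha5, chr5:84417333-84417632, minus strand: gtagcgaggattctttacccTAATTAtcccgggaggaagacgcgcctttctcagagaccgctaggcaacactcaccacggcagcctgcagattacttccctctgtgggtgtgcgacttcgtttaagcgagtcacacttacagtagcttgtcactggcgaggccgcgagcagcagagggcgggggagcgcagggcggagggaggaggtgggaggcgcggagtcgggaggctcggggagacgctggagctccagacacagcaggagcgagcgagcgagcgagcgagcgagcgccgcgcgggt
Nrp1, chr8:128358823-128359122, plus strand: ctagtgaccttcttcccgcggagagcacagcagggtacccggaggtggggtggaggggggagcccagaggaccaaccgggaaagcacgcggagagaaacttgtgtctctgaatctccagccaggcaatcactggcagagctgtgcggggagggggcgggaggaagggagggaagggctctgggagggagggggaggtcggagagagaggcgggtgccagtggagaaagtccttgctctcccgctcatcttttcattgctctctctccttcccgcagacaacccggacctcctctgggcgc
Nrp2, chr1:62703067-62703366, plus strand: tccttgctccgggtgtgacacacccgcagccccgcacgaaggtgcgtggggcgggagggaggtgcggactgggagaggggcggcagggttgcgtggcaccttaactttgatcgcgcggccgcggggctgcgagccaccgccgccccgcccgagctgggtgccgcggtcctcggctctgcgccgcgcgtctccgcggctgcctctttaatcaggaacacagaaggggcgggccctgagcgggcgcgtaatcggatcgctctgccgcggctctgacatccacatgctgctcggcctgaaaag
Ntng1, chr3:110143423-110143722, minus strand: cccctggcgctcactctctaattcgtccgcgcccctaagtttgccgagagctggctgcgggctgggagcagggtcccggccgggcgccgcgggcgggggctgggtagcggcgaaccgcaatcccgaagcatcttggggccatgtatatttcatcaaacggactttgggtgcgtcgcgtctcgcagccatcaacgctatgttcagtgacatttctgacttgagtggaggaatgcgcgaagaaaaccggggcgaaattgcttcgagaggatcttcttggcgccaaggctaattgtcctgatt

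Epha5, an Eph receptor that binds A-type ephrins, lies at chr5:84054761-84417382 on the minus strand (GRCm38, GENCODE M21). Its level in Sets 1, 2 and 3 was 8.44, 7.45 and 6.18 CP10K in cluster 1, against 2.27, 2.58 and 1.88 in cluster 2. The lowest set of cluster 1 was above the highest set of cluster 2, and cluster 1 was higher on 11 of 11 plates. The means of 7.36 ± 1.13 and 2.24 ± 0.352 CP10K (SD, n = 3 each) stand in a ratio of 3.28, and the log2 difference was 1.42 (SE 0.07, adjusted p = 1.96e-11). In single cells thinned to 15000 counts, the median was 11 counts in cluster 1 (quartiles 7 and 14) and 3 counts in cluster 2 (quartiles 1.5 and 4). The lower quartile of cluster 1 was above the upper quartile of cluster 2, although 90.7% of cluster 2 cells also held a count at that depth.

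Cluster 4 and high-count cluster 3 were low in this receptor. Epha5 stood at 2.61, 1.89 and 1.10 CP10K in cluster 4 and at 1.20, 1.32 and 0.871 in high-count cluster 3. High-count cluster 3 lay below every set of cluster 2, and cluster 4 overlapped it. Set against the mean of clusters 1 and 2, the log2 difference was -0.83 (SE 0.06, adjusted p = 2.53e-09) for cluster 4 and -1.22 (SE 0.06, adjusted p = 5.87e-11) for high-count cluster 3. Both calls passed under every alternative run.

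Efna5, an A-type ephrin anchored to the membrane by a lipid, lies at chr17:62604184-62881317. It ran the other way, with 0.702, 0.987 and 1.15 CP10K in cluster 1, against 1.17, 1.51 and 1.54 in cluster 2. The sets of the 2 clusters did not overlap, but Set 3 of cluster 1 lay just under Set 1 of cluster 2. Cluster 1 was lower on 11 of 11 plates. The log2 difference was -0.32 (SE 0.06, adjusted p = 0.00163), and over the alternatives the adjusted p went as high as 0.314, so the call was lost with thinning, without Set 1 and without the set block. In cluster 4 Efna5 stood at 0.616, 0.712 and 1.16 CP10K. It was called lower there than the mean of clusters 1 and 2 (-0.21, SE 0.05, adjusted p = 0.00536), and 8 of 12 alternatives kept that call. The sets of cluster 4 overlapped those of cluster 1, and in Set 3 cluster 4 was not below cluster 1. In high-count cluster 3 Efna5 measured 1.12, 1.42 and 1.58 CP10K, close to cluster 2. Its call as higher than the same mean (0.17, SE 0.05, adjusted p = 0.0295) passed under only 2 of 11 alternatives.

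The other Eph receptors were scarce in neurons. Ephb6, a member of the family that lacks kinase activity, measured 0.0893, 0.233 and 0.139 CP10K in cluster 4, 0.176, 0.187 and 0.211 in high-count cluster 3, 0.207, 0.239 and 0.275 in cluster 1 and 0.377, 0.322 and 0.341 in cluster 2. It was called lower in cluster 4 than in clusters 1 and 2 (-0.15, SE 0.04, adjusted p = 0.00314), a call that 9 of 12 alternatives kept. The receptor Epha10, likewise without kinase activity, was called lower there too (-0.10, SE 0.03, adjusted p = 0.00686), with 9 of 11. Ephb6 was lower in cluster 1 than in cluster 2 on 11 of 11 plates, but its adjusted p was 0.0913. Epha7 was higher in cluster 1 on 11 of 11 plates at means of 0.0754 and 0.0225 CP10K in clusters 1 and 2, and was not called.

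**Figure D2:**
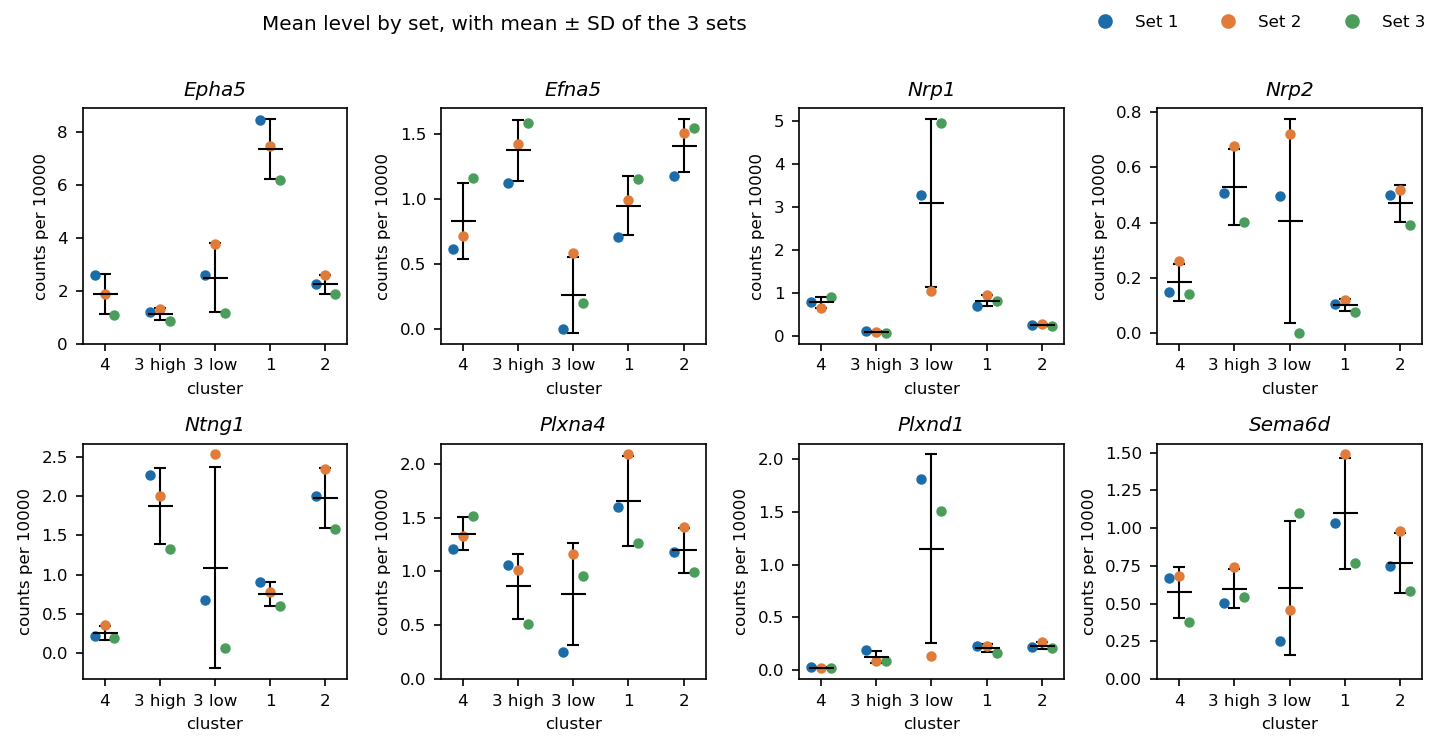
Level in CP10K (y axis) of 8 members in each class of cells (x axis), 1 point per set, with the mean and SD of the 3 sets as a dash and bar. Epha5 in cluster 1 lies at 6.18 to 8.44, above every set of the other classes; the 3 sets of low-count cluster 3 spread widely in most panels.

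Ephb1 was a special case, singled out after its values were seen. This B-type Eph receptor, which binds B-type ephrins, had a count in 21 of 54 cells of cluster 4 (38.9%, 95% Clopper-Pearson interval 25.9 to 53.1%, counting error only), with 55 counts in all and at most 6 in a cell. Elsewhere 2 of 824 cells had a count. At 15000 counts per cell the share was 35.8% of 53 cells of cluster 4, 0 of 47 cells of high-count cluster 3 (which allows a share of up to 6.38%), 0.272% of cluster 1 and 0 of 323 cells of cluster 2 (up to 0.929%). For scale, Vip, at 54.1 CP10K in cluster 4, still reached 0.215 CP10K in cluster 1 and 0.232 in cluster 2, that is 0.397% and 0.429% of its cluster 4 level, and 22.6% of cluster 1 cells had a count of it at the same depth. The Ephb1 cells were unevenly divided over the sets: 0 of 12 cells in Set 1 (which allows up to 25%), 9 of 24 in Set 2 and 12 of 18 in Set 3. On levels of 0, 0.267 and 0.502 CP10K in the 3 sets, Ephb1 averaged 0.256 ± 0.251 CP10K in cluster 4 (SD, n = 3). It reached the level needed for the test only through cluster 4, so its difference is given as a description with no p-value.

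Within cluster 4 the Ephb1 cells were poor in Sst, the gene for the peptide somatostatin. Of 14 cells with 5 or more Sst counts none had an Ephb1 count, whereas 21 of the other 40 cells did. Of the 21 Ephb1 cells, 20 had no Sst count and the last had 4. The cells without Ephb1 reached 244 Sst counts, and the 3 cells of Set 1 with 5 or more Sst counts left 9 cells of that set with neither gene at these depths. The threshold of 5 counts was chosen after the values were seen, and no test was made of this division.

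**Figure D3:**
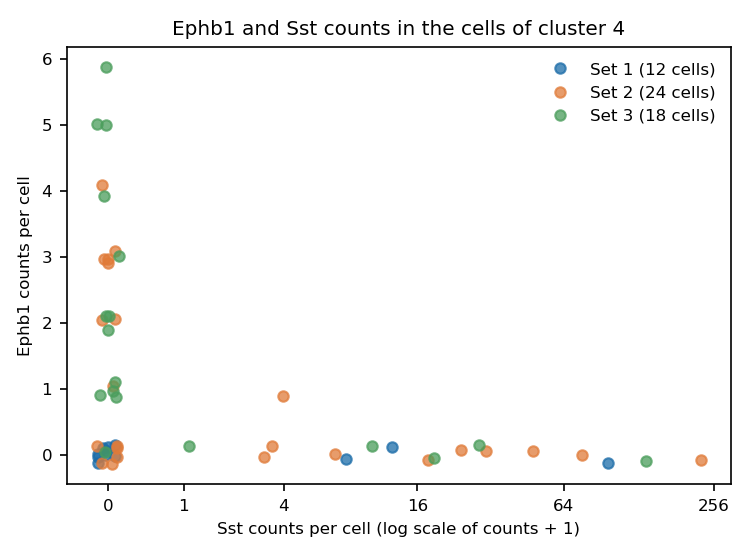
Ephb1 counts (y axis) against Sst counts (x axis, log scale of counts + 1) in the 54 cells of cluster 4, coloured by set and shifted slightly at random so that points do not hide each other. The 21 cells with Ephb1 hold 0 to 4 Sst counts, and none of them is from Set 1.

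The neuropilins divided the clusters in opposite directions. Nrp1, the receptor of Sema3a-type ligands and a co-receptor of VEGF, lies at chr8:128358604-128503363. It measured 0.709, 0.952 and 0.811 CP10K in cluster 1, against 0.248, 0.286 and 0.233 in cluster 2. Nrp2, which prefers other class 3 semaphorins such as Sema3f and lies at chr1:62703285-62818695, measured 0.107, 0.121 and 0.0764 CP10K in cluster 1, against 0.499, 0.519 and 0.392 in cluster 2. For neither gene did the sets of the 2 clusters overlap. Log2 differences were 0.49 for Nrp1 (SE 0.05, adjusted p = 1.20e-06) and -0.39 for Nrp2 (SE 0.04, adjusted p = 1.68e-06), each with the same sign on 11 of 11 plates. The mean levels in cluster 1 and cluster 2 stood in ratios of 3.22 for Nrp1 and 0.216 for Nrp2. These log2 differences are smaller than the ratios because adding 1 before the logarithm compresses low levels.

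The smaller classes took one pattern each. In cluster 4, Nrp1 stood at 0.793, 0.660 and 0.904 CP10K, overlapping cluster 1, and Nrp2 at 0.147, 0.262 and 0.142, between clusters 1 and 2. High-count cluster 3 had 0.108, 0.0913 and 0.0673 CP10K of Nrp1, below every set of clusters 1, 2 and 4, and 0.507, 0.676 and 0.401 of Nrp2, overlapping cluster 2. Against the mean of clusters 1 and 2, high-count cluster 3 was lower in Nrp1 (-0.42, SE 0.05, adjusted p = 1.15e-06) and higher in Nrp2 (0.26, SE 0.04, adjusted p = 3.52e-05) under every alternative run. Cluster 4 was called higher in Nrp1 (0.20, SE 0.05, adjusted p = 0.00269), a call lost with thinning and without Set 3, and its Nrp2 difference was -0.10 (SE 0.04, adjusted p = 0.0636).

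The same division was visible in single cells. At 15000 counts per cell, 58.9% of cluster 1 cells had counts of Nrp1 and not Nrp2, and 5.99% had Nrp2 and not Nrp1. In cluster 2 these shares were 16.7% and 39.9%. Cells with both made up 7.90% of cluster 1 and 12.1% of cluster 2. The product of the separate shares of Nrp1 and Nrp2 was 9.28% in cluster 1 and 15.0% in cluster 2. In cluster 4, 47.2% had Nrp1 alone and 5.66% Nrp2 alone, and in high-count cluster 3, 10.6% and 38.3%. Cells with both were 13.2% of cluster 4, beside a product of 11.4%, and 2.13% of high-count cluster 3, beside 5.16%. With all counts used, and depth therefore unequal, Nrp1 alone was seen in 64.2% of cluster 1 and 11.3% of cluster 2. Nrp2 alone was seen in 3.35% and 32.8%. Cells with both then made up 18.8% of cluster 1 and 43.6% of cluster 2, beside products of 18.4% and 42.0%.

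**Figure D4:**
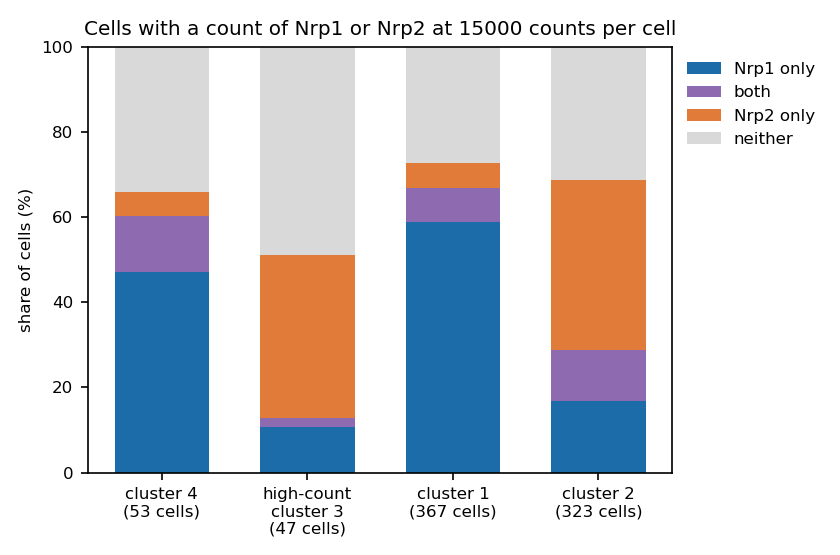
Share of cells (y axis, %) in which Nrp1 only, both neuropilins, Nrp2 only or neither had a count, by class of neurons (x axis), after thinning to 15000 counts per cell. Nrp1 alone fills 58.9% of cluster 1 and 47.2% of cluster 4, and Nrp2 alone fills 39.9% of cluster 2 and 38.3% of high-count cluster 3.

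Among the plexins, the signalling partners of neuropilins, Plxna4 was widespread. It stood at 1.21, 1.33 and 1.51 CP10K in cluster 4, 1.06, 1.01 and 0.508 in high-count cluster 3, 1.60, 2.09 and 1.26 in cluster 1 and 1.18, 1.41 and 0.994 in cluster 2. Cluster 1 was higher than cluster 2 in 3 of 3 sets and on 10 of 11 plates, but with an adjusted p of 0.0910. High-count cluster 3 was called lower (-0.33, SE 0.08, adjusted p = 0.00572), and 7 of 11 alternatives kept that call. Plxna4os2 never exceeded 0.0321 CP10K in a set of these neurons. Its exons share no bases with those of Plxna4.

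Plxnd1, a plexin that can bind Sema3e without a neuropilin, was scarce in cluster 4. It had 0.0279, 0.0194 and 0.0172 CP10K there, against 0.229, 0.228 and 0.162 in cluster 1 and 0.220, 0.266 and 0.205 in cluster 2. Only 4 counts were found in 4 of the 54 cells of cluster 4, and at 15000 counts per cell 1.89% of them had a count, compared with 26.7% of cluster 1 and 27.6% of cluster 2. The log2 difference was -0.22 (SE 0.03, adjusted p = 3.92e-06), and the mean level was 0.0985 times that of clusters 1 and 2. Plxnc1, the receptor of Sema7a, was also lower in cluster 4, at 0.0358, 0.0717 and 0.155 CP10K (-0.26, SE 0.05, adjusted p = 0.000927). Both calls passed under every alternative run. In high-count cluster 3, Plxnd1 measured 0.194, 0.0905 and 0.0880 CP10K (-0.09, SE 0.03, adjusted p = 0.0281), a call that 4 of 10 alternatives kept.

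Sema6d, a transmembrane semaphorin that binds class A plexins, was the class 6 member with the highest counts. It stood at 0.668, 0.680 and 0.381 CP10K in cluster 4, 0.505, 0.746 and 0.547 in high-count cluster 3, 1.03, 1.49 and 0.768 in cluster 1 and 0.750, 0.980 and 0.583 in cluster 2. Sets differed as much as clusters, so the ranges overlap, but cluster 1 was above cluster 2 in each set and on 11 of 11 plates (0.21, SE 0.06, adjusted p = 0.0400). That call passed under 4 of 12 alternatives. The call of cluster 4 as lower (-0.26, SE 0.05, adjusted p = 0.00115) passed under 11 of 12, failing without the set block.

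The secreted class 3 semaphorins were low. Sema3c measured 0.0371, 0.0816 and 0.0156 CP10K in cluster 4, 0.150, 0.227 and 0.114 in high-count cluster 3, 0.110, 0.231 and 0.105 in cluster 1 and 0.0947, 0.292 and 0.112 in cluster 2. It was called lower in cluster 4 (-0.13, SE 0.03, adjusted p = 0.00145). Sema4d, a transmembrane semaphorin that binds Plxnb1, measured 0.373, 0.497 and 0.222 CP10K in cluster 4, 0.219, 0.407 and 0.246 in high-count cluster 3, 0.368, 0.432 and 0.359 in cluster 1 and 0.365, 0.498 and 0.361 in cluster 2, and was called in none of the comparisons between these neurons. Sema4a was called higher in cluster 4, at 0.106 ± 0.0659 CP10K, against 0.0362 ± 0.00272 in cluster 1 and 0.0433 ± 0.00448 in cluster 2 (0.08, SE 0.02, adjusted p = 0.0183). That call was kept by 6 of 11 alternatives, and the cluster 4 level rests on 19 counts in 15 of 54 cells. High-count cluster 3 had 0.0706 ± 0.0215 CP10K of Sema4a, and its sets overlapped those of cluster 4. Sema7a, anchored to the membrane by a lipid, had 1 count in cluster 1, 2 counts in cluster 2 and none in cluster 4 or high-count cluster 3, while its receptor Plxnc1 was present in all 4.

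Slit3, a secreted Robo ligand, was the most abundant member of the Slit and Robo families in these neurons. It was lower in cluster 4, with 0.113, 0.222 and 0.167 CP10K (-0.15, SE 0.03, adjusted p = 0.00106), and in high-count cluster 3, with 0.160, 0.190 and 0.135 (-0.15, SE 0.03, adjusted p = 0.00232). Clusters 1 and 2 had 0.276, 0.405 and 0.306 and 0.279, 0.356 and 0.293 CP10K. Robo1 stood at 0.185, 0.120 and 0.0329 CP10K in cluster 4, against a mean of 0.0330 over clusters 1 and 2. That mean joins 0.00955 in cluster 1 and 0.0564 in cluster 2, and the sets of clusters 4 and 2 overlapped. Robo1 too reached the level needed for the test only through cluster 4. Its call as higher there (0.09 on the log2 scale, SE 0.03) is therefore a description.

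Slit2 and Robo2 were below the level needed for the test in the neurons and are named here after their counts were seen. Slit2 had a count in 96 of 388 cells of cluster 1 (24.7%) and in 14 of 335 cells of cluster 2 (4.18%), although cluster 2 was the deeper. At 15000 counts per cell the shares were 14.7% (95% interval 11.3 to 18.8%) in cluster 1 and 0.310% (0.00784 to 1.71%) in cluster 2. The levels of Slit2 in the 3 sets were 0.0954, 0.121 and 0.108 CP10K in cluster 1, against 0.00688, 0.0132 and 0.0180 in cluster 2, and the sets did not overlap. Robo2 went the other way, with a count in 2 of 388 cells of cluster 1 and in 47 of 335 of cluster 2, and in 0.545% and 3.41% of cells at 15000 counts. Robo1 likewise had a count in 1.91% of cluster 1 cells and 7.43% of cluster 2 cells at that depth, with a difference that was not called (-0.06, SE 0.03, adjusted p = 0.315).

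Ntng1, netrin-G1, belongs to the netrin family by sequence but is anchored to the membrane and binds a ligand of the NGL family rather than Dcc. It lies at chr3:109780040-110144011 on the minus strand. Levels were 0.901, 0.777 and 0.595 CP10K in cluster 1, against 2.00, 2.35 and 1.58 in cluster 2, with no overlap, and cluster 1 was lower on 11 of 11 plates (-0.76, SE 0.07, adjusted p = 2.00e-07). Cluster 4 was lower still, at 0.214, 0.365 and 0.196 CP10K, which is 0.189 times the mean of clusters 1 and 2 (-0.79, SE 0.06, adjusted p = 4.70e-09, under every alternative run). High-count cluster 3 had 2.27, 2.00 and 1.33 CP10K, overlapping cluster 2. Its call as higher than the mean of clusters 1 and 2 (0.36, SE 0.06, adjusted p = 0.000361) was lost with thinning, with median-of-ratios scaling and without the set block. At 15000 counts per cell 28.3% of cluster 4 cells had a count, against 60.8% of cluster 1 and 90.7% of cluster 2.

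The secreted netrin Ntn1 had 1 count in cluster 4, 1 in high-count cluster 3, 5 in cluster 1 and 7 in cluster 2. Of the netrin receptors, Dcc had no count in cluster 4, 2 in high-count cluster 3, 12 in cluster 1 and 8 in cluster 2. Neo1, neogenin, which also binds repulsive guidance molecules, measured 0.227, 0.208 and 0.109 CP10K in cluster 4, 0.194, 0.255 and 0.111 in high-count cluster 3, 0.171, 0.244 and 0.149 in cluster 1 and 0.216, 0.210 and 0.140 in cluster 2. None of its differences between these neurons was called.

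Over all members, the second comparison set cluster 4 against the mean of clusters 1 and 2. It called 3 of 32 members higher (Nrp1, Robo1 and Sema4a), beside 11.5% of all genes, and 10 lower, beside 11.5% of all genes. Robo1 entered the test only through cluster 4. Of the 29 members that reached the level without that class, 2 were higher and 10 lower. The median log2 difference was -0.03 over the 32 members and -0.00 over all genes. The 10 lower members were Epha5, Epha10, Ephb6, Efna5, Ntng1, Plxnc1, Plxnd1, Sema3c, Sema6d and Slit3. Glial markers summed to 12.4 to 31.6 CP10K in cluster 4 over the sets, compared with 6.39 to 8.61 in cluster 1 and 7.61 to 17.4 in cluster 2. Without the 10% of cells richest in them, 16 members were called, 5 higher and 11 lower, beside 11.0% and 11.6% of all genes.

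The next comparison set high-count cluster 3 against the same mean. It called 4 of 32 members higher (Efna5, Nrp2, Ntng1 and Plxna1), beside 11.0% of all genes. For each of these 4 the sets overlapped those of cluster 2. Plxna1 averaged 0.119 CP10K, against 0.0490 in cluster 1 and 0.106 in cluster 2. Its call (adjusted p = 0.0484) passed under 2 of 10 alternatives. The comparison called 6 members lower (Epha5, Nrp1, Plxna4, Plxnd1, Sema6d and Slit3), beside 4.92%. The median was 0.00 over the members and 0.02 over all genes. Depth differed between the classes, and with cells thinned to 15000 counts 1 member was higher and 4 were lower, beside 3.69% and 3.55% of all genes. With median-of-ratios size factors the split was 1 higher and 7 lower, beside 5.79% and 5.94%. Without Set 2, 2 members were higher and 2 lower, beside 5.42% and 2.95%. All comparisons against the mean of clusters 1 and 2 share those cells, so their values are given side by side and not set against each other.

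**Figure D5:**
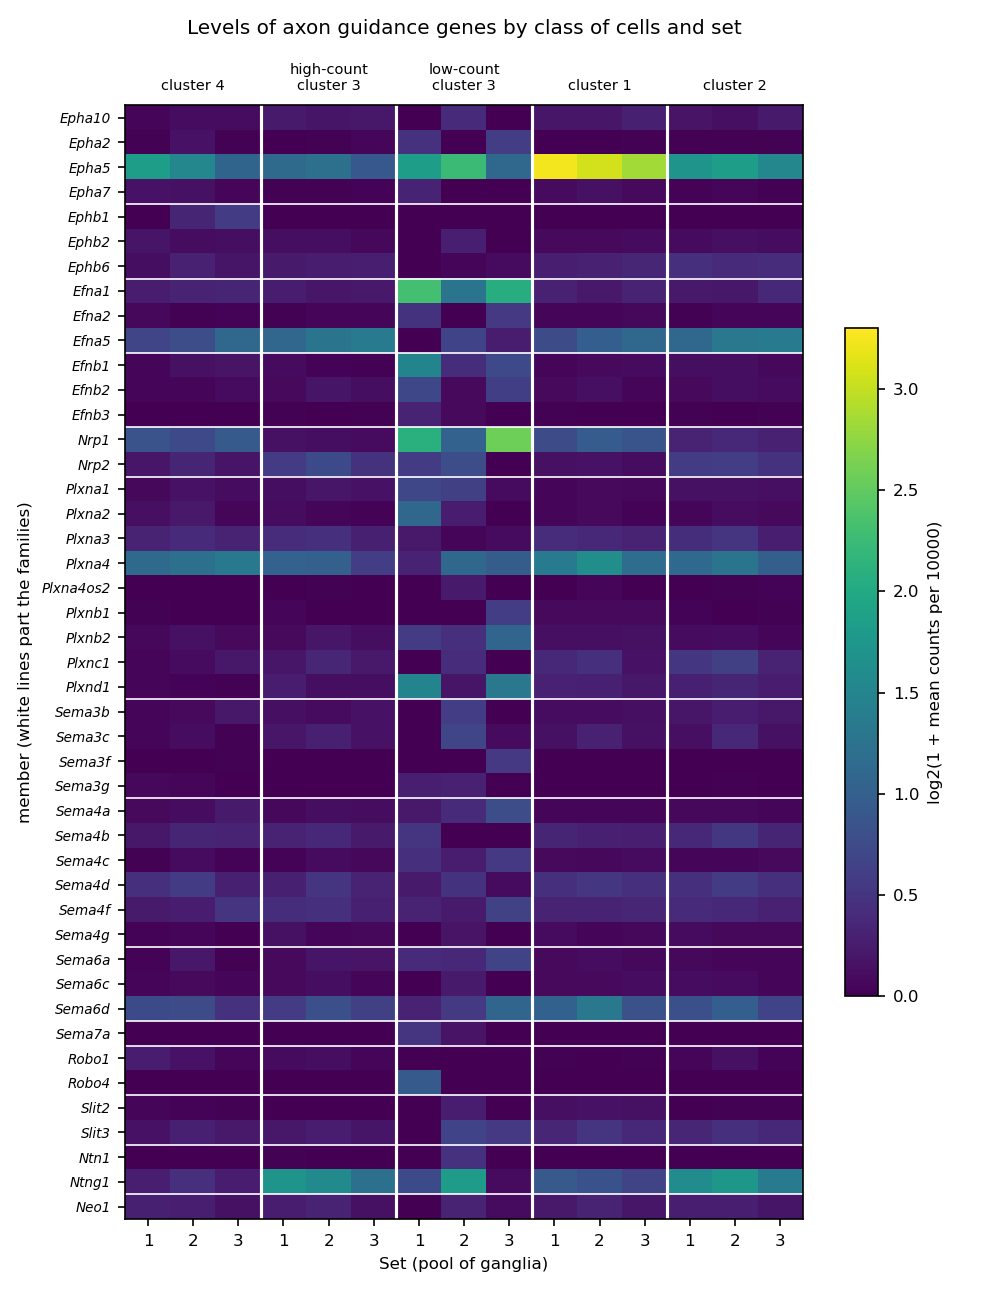
Colour gives log2(1 + mean CP10K) of the 45 members (rows) that reach 0.05 CP10K in at least 1 class, in each of the 3 sets (columns) of the 5 classes of cells. Epha5 is brightest in cluster 1, Ntng1 in high-count cluster 3, cluster 2 and Set 2 of low-count cluster 3, and Efna1 and Nrp1 in low-count cluster 3.

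The low-count cells of cluster 3 were compared last, and their values rest on few counts. Efna1, an A-type ephrin known in endothelial cells, stood at 3.98, 1.41 and 3.15 CP10K there, against 0.236, 0.174 and 0.245 in cluster 1 and 0.170, 0.161 and 0.307 in cluster 2. The lowest of its low-count sets was above every set of the neurons (1.05, SE 0.19, adjusted p = 0.00422), and the call passed under every alternative run, with adjusted p up to 0.0495. Efnb1, a transmembrane B-type ephrin, had 1.81, 0.346 and 0.653 CP10K, against 0.0435, 0.0641 and 0.0651 in cluster 1 and 0.0904, 0.0873 and 0.0546 in cluster 2 (0.39, SE 0.10, adjusted p = 0.0188). Plxnb2, a plexin that binds class 4 semaphorins, had 0.501, 0.372 and 1.11 CP10K, against a mean of 0.0816 over clusters 1 and 2 (0.25, SE 0.05, adjusted p = 0.00458). Nrp1 measured 3.28, 1.06 and 4.95 CP10K (0.80, SE 0.25, adjusted p = 0.0334), with the same sign in 2 of 3 sets on the log scale, and 6 of 11 alternatives kept the call, which was lost with thinning, without Set 1 or Set 3, with no filter and with the smaller pseudocount. Efna5 was lower, at 0, 0.579 and 0.202 CP10K (-0.83, SE 0.07, adjusted p = 0.000576).

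Over the list, 9 of 40 members were called higher in low-count cluster 3, beside 5.85% of all 11062 genes, and 11 lower, beside 47.3%. Of the 40, 9 reached the level needed for the test only through the low-count cells, among them Epha2 and Sema4a, which were called higher. The other 31 held 7 members called higher and 11 called lower. This split depends on the scaling. At 2196 counts per cell, 4 members were higher (3.39% of all genes) and 3 lower (4.31%). With voom weights 21 were higher (27.3%) and 1 lower (7.84%), and with median-of-ratios size factors 8 were higher (7.6%) and 1 lower (16.3%). The median log2 difference of all genes was -0.12 as first tested, -0.02 with thinning, 0.34 with voom and -0.42 with median-of-ratios scaling. Efna1, Plxnb2 and Sema4c, a transmembrane semaphorin, were the members whose calls passed throughout. Sema4c measured 0.376, 0.186 and 0.461 CP10K, against a mean of 0.0506 over clusters 1 and 2 (0.17, SE 0.03, adjusted p = 0.00367). Its exons share bases with a gene on the opposite strand, as described below. These levels rest on 6 counts in 6 of the 54 low-count cells.

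These cells were not alike. Of the 54, 26 had counts of 3 or more of 8 endothelial markers, and by set they were 13 of 15, 6 of 31 and 7 of 8. The cells with those markers held 29 of the 35 Efna1 counts, 30 of the 36 Nrp1 counts, 9 of the 11 Plxnd1 counts and the 4 counts of Robo4, a Robo receptor of endothelial cells. Of the ephrin Efnb1 they held 7 of 14 counts, and of Plxnb2 they held 5 of 10. They held 15 of the 52 Epha5 counts, 4 of the 35 Ntng1 counts and none of the 9 Efna5 counts, at 82711 counts in total, against 104725 in the other 28 cells. Robo4 had no count in the 824 other cells of the study, which allows a share of up to 0.364%. Set 2, with the lowest share of endothelial-marker cells, was the set lowest in Efna1, Nrp1 and Plxnd1. The glial markers of the low-count cells also varied, from 12.3 to 81.5 CP10K over the sets. How far this mixture makes up the differences from clusters 1 and 2 was not tested.

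Sets were described over clusters 1 and 2, plate by plate, with no test because a set is a single pool. Epha5 was lower on the plates of Set 3 (3.48 to 4.35 CP10K, mean of the 2 clusters) than on those of Set 1 (4.94 to 5.58), and the plates of Set 2 (4.27 to 5.50) overlapped both. Ntng1 was lower in Set 3 (1.04 to 1.12) than in Set 1 (1.29 to 1.72) and Set 2 (1.42 to 1.86), without overlap. Plxnc1 was at 0.174 to 0.202 on the plates of Set 3, compared with 0.283 to 0.414 in Set 1 and 0.352 to 0.494 in Set 2. Sema3c stood out in Set 2, with 0.206 to 0.309 on its plates, compared with 0.0906 to 0.121 in Set 1 and 0.0796 to 0.130 in Set 3. Efna5 was lowest in Set 1 (0.912 to 1.02), below each plate of Set 2 (1.06 to 1.33) and Set 3 (1.02 to 1.67). The plates of Sets 1 and 2 did not overlap for 5 of 32 members (18.9% of all genes), those of Sets 1 and 3 for 8 (32.2%) and those of Sets 2 and 3 for 11 (35.9%). As shares of the 32 members these are 15.6%, 25% and 34.4%.

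Genes that work with these receptors were followed on a list of co-receptors and other ligands and a list of intracellular effectors. Of 23 co-receptors and ligands tested in the neurons, 2 were higher and 2 lower in cluster 1 than in cluster 2, beside the 3.37% and 4.71% of all genes given above. Tspan8, a tetraspanin, averaged 10.7 ± 0.907 CP10K in cluster 1 and 4.91 ± 1.05 in cluster 2 (1.10, SE 0.16, adjusted p = 0.00327), and Islr2, a leucine-rich repeat protein of axons, averaged 0.230 ± 0.0558 and 0.515 ± 0.0429 (-0.30, SE 0.04, adjusted p = 2.73e-05). In cluster 4, 4 were higher and 8 lower, beside 11.5% of all genes each way, with a median log2 difference of -0.12 beside -0.00 over all genes. Gpc1, among the 4 higher, reached the level needed for the test only through cluster 4. The contactins moved apart: Cntn1 was lower in cluster 4 (-0.92, SE 0.08, adjusted p = 5.79e-08) and Cntn2 higher (0.50, SE 0.03, adjusted p = 8.26e-11). In high-count cluster 3, 3 were higher and 2 lower, beside 11.0% and 4.92%, with Islr2 at 0.778 ± 0.0410 CP10K.

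Of 54 intracellular effectors, 3 were higher and 1 lower in cluster 1 than in cluster 2. That is 7.41% of the list, near the 8.07% of all genes called in either direction. The lowest adjusted p among them was that of Pdlim7, a PDZ and LIM domain protein, at 3.52 ± 0.245 and 1.53 ± 0.229 CP10K (0.84, SE 0.07, adjusted p = 1.38e-08). In cluster 4, 9 were higher and 9 lower, beside 11.5% of all genes each way. Mical2, among the 9 higher, reached the level needed for the test only through cluster 4. Chn2, beta-chimaerin, a Rac-inactivating protein of the family that acts downstream of Eph receptors and plexins, averaged 1.06 ± 0.189 CP10K in cluster 4, against 0.0187 ± 0.00423 in cluster 1 and 0.112 ± 0.0174 in cluster 2 (0.90, SE 0.04, adjusted p = 3.25e-12). Pdlim7 was higher there too, at 6.05 ± 0.535 CP10K (1.10, SE 0.06, adjusted p = 9.78e-12), and Dpysl2, a collapsin response mediator of semaphorin signals, was lower, at 4.59 ± 0.281 (-0.44, SE 0.05, adjusted p = 1.66e-06). In high-count cluster 3, 12 were higher, beside 11.0% of all genes, and 1, Dpysl2, was lower, beside 4.92% (-0.36, SE 0.05, adjusted p = 3.99e-05). Tiam1, among the 12 higher, reached the level needed for the test only through high-count cluster 3. The medians of this list were -0.01, 0.00 and 0.04 in the 3 comparisons, beside -0.01, -0.00 and 0.02 over all genes. In low-count cluster 3, 1 of 22 co-receptors and ligands was higher and 15 lower, and 2 of 55 effectors were higher and 26 lower. Of all genes, 5.85% were higher and 47.3% lower there. The counts of both lists are as first tested, with no thinning. With thinning, 3.69% of all genes were higher and 3.55% lower in high-count cluster 3. In low-count cluster 3 these shares were 3.39% and 4.31%.

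In all, 10 members stayed under 0.05 CP10K in every class: Dcc, Efna3, Epha1, Epha4, Ephb3, Plxnb3, Robo2, Sema3d, Sema5a and Slit1. The class 5 semaphorin Sema5a had 8 counts in 5 cells of cluster 2 and 1 in low-count cluster 3. Of the 55 members, 13 reached no test. Of the 32 tested in the neurons, 16 were called in at least 1 of the 3 comparisons between neurons, beside 33.3% of all genes tested there. With the low-count cells included, 26 of the 42 members tested were called, beside 61.5% of all genes tested. Exons of 2 members share bases with a gene on the opposite strand in the table, Epha1 with Zyx and Sema4c with D430040D24Rik, and the sources used here give no strand setting for the counting, so counts of such pairs may be mixed.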

How the data were processed

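As their sums per cell show, the deposited values are on a natural log scale, ln(1 + x), where x is the count of a gene per 10000 counts of the cell. Undoing this gave whole counts, to within 0.001, for 100% of the non-zero values. Reads were 3' ends of cDNA pooled within a plate, per the labels' protocols. Per the submitters' processing notes they were aligned to GRCm38 with STAR 2.5.3a and counted with featureCounts 1.5.3, with SAMtools 1.4.1 and Seurat also named. The deposited cluster numbers and gate names are labels with no unit.

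The members, lists and rules were chosen with earlier results of these data known. Members are given with values per set where they passed in a comparison and averaged 0.5 CP10K in a class, or had the highest mean level of their family (those with few counts are given by counts); others named were chosen after their values were seen. Genes needed a mean of 0.05 CP10K over the classes of a fit. Limma 3.58.1 (R 4.3.3, trend and robust options, two-sided) was fitted to the mean over cells of log2(1 + CP10K) per set and class with the set as a block, for clusters 1, 2, 4 and high-count cluster 3 together, and for clusters 1 and 2 with the low-count cells. An adjusted p under 0.05 was called. This scale understates changes of low genes. Sets pair the classes because they come from the same pool of ganglia, and deviations of the same set correlated at 0.481 to 0.866 between the 4 classes of neurons (not computed for the low-count cells). With 3 pools of mice and the set as a block, p-values measure how far a difference between classes varied from pool to pool. That spread was moderated over all genes. Alternatives were summed counts with voom weights or median-of-ratios scaling, thinning to 15000 counts (34 cells left out) or to 2196 counts with the low-count cells (14 left out), no block, leaving out each set, other filters (none, or 0.2 CP10K), a pseudocount of 0.25, leaving out the 10% of cells richest in glial markers, and leaving high-count cluster 3 out of the fit. Shares have 95% Clopper-Pearson intervals, and the limit beside a count of 0 is 3 cells of the total; both cover counting error only. Preparation and figures used scipy 1.17.1, pandas 2.3.3, matplotlib 3.10.9 and numpy 2.4.6 under Python 3.11.15. No doublet caller was run, and the deposited sort record was not used because its wells could not be tied to cells.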

Additional observations from a re-analysis of the deposited data

Results flagged for a closer look

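Plates within Sets 1 and 2 were screened for a plate far from the other 3 of its set, in the mean level of clusters 1 and 2, for each member given by set. Of 32 groups of 4 plates, 4 held such a plate, where chance gives about 1 in 20. Efna5 stood at 1.02 CP10K on plate 3 of Set 1, with the others at 0.912 to 0.926, and at 1.06 on plate 8 of Set 2, with the others at 1.29 to 1.33. Neo1 stood at 0.287 on plate 6 of Set 2, with the others at 0.200 to 0.212. Plxna4 stood at 1.91 on plate 5 of Set 2, with the others at 1.68 to 1.70. Each of these plates held at least 25 cells of either cluster. For none of these members did the difference between clusters 1 and 2 point one way on all plates of one set and the other way on all plates of another.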

How the results depend on the processing

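The number of members called changed by more than 1.5 times under some settings. For cluster 1 against cluster 2 it was 6, and 14 with voom weights. For cluster 4 it was 13, and 8 with a filter at 0.2 CP10K, where 15 members were tested. For high-count cluster 3 it was 10, and 5 with thinning and 3 without the replicate block. For low-count cluster 3 it was 20, and 9 with median-of-ratios scaling and 7 with thinning. Leaving out each set gave 4 to 6, 10 to 11, 4 to 8 and 13 to 19 calls in those 4 comparisons; 4 came without Set 2 in high-count cluster 3 and 13 without Set 1 in low-count cluster 3. Without the block the paired counts of 6, 13 and 20 became 4, 9 and 20. In low-count cluster 3, 2 members changed sign with voom weights, Neo1 to 0.44 and Ntng1 to 0.052. The causes were not tested. No called member changed sign under the alternatives run for the other 3 comparisons. Members called under every alternative were Epha5, Nrp1, Nrp2 and Ntng1 between clusters 1 and 2, Epha5, Ntng1, Plxnc1 and Plxnd1 in cluster 4, Epha5, Nrp1 and Nrp2 in high-count cluster 3, and Efna1, Plxnb2 and Sema4c in low-count cluster 3. Over all genes, calls ranged from 273 to 2337, 1037 to 2608, 476 to 2376 and 852 to 8044 in the same order. As first tested, 8.07%, 23.1%, 15.9% and 53.1% of all genes were called. Between clusters 1 and 2 the share was 22.2% with voom weights. In high-count cluster 3 it was 7.24% with thinning and 8.37% without Set 2. In low-count cluster 3 it was 23.9% with median-of-ratios scaling and 7.70% with thinning. Member counts under settings with no such share are not read as results about the members. No cell lay within 0.1 log10 units of the split of cluster 3, so leaving such cells out changes nothing and gave no separate value. Depth limits the low-count cells most: at their median of 2683.5 counts, 1 count is worth several CP10K, so levels there rest on few counts. In cluster 4, 54 cells in 3 sets limit members seen in a minority of cells, such as Ephb1.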
